A study of Mus musculus with 8 samples.

Results

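The synaptic vesicle and SNARE genes are the families that dock, prime and fuse neurotransmitter vesicles, together with the relatives of those families that serve other membranes of the cell. Members were chosen by name alone, as every gene in the table called a synapsin, synaptotagmin, VAMP, syntaxin, SNAP, SV2 protein, synaptophysin, synaptogyrin, Rab3, Munc18-type syntaxin binding protein, complexin, Munc13, RIM, Bassoon or Piccolo. The rule found 78 of the 24081 genes, and 73 of these were among the 15123 genes whose mean over the 8 libraries reached 10 normalized counts. Syngr4, Stx11, Stx19, Cplx4 and Syt8 fell below that mean and were not tested. Snap91, which carries a SNAP symbol, encodes the clathrin adaptor AP180 and is not a SNARE.

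RNA-seq was performed on brainstem (BS) tissue of untreated C57BL/6 mice, 4 libraries from KI animals and 4 from control animals. Both groups had the Nestin Tv-a and Olig2-Tv-a/Cre alleles and homozygous floxed p53, so that the tumor suppressor p53 was deleted from Olig2-expressing progenitors in the controls as well. The KI mice carried in addition hPDGFRA fl/+, a human PDGFRA complementary DNA placed in the Rosa26 locus behind the CAG promoter, where Cre has to remove a stop element before the receptor can be made. Animals were P19 by the labels (P18/P19 in the methods), and the Cre driver acts in the oligodendrocyte lineage and in other progeny of Olig2-expressing cells rather than in neurons at large.

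Vesicle release is driven by SNARE proteins. A VAMP on the vesicle zips together with a syntaxin and a SNAP-25 type protein on the target membrane, Munc18 and Munc13 proteins prepare that assembly, complexins and synaptotagmins hold it until calcium enters, and RIM, Bassoon and Piccolo keep it at the active zone. Synapsins, SV2 proteins, synaptophysin, synaptogyrins and Rab3 proteins sit on the vesicle itself. Other VAMPs and syntaxins move cargo between the Golgi, endosomes, lysosomes and the plasma membrane in every cell type, glia included.

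Pdgfra read 2565 to 3087 normalized counts in the controls and 11437, 9706, 8939 and 3269 in KI replicates 1 to 4, so that KI replicate 4 exceeded the controls only slightly. The transcript of the Rosa26 locus read 82.9 to 93.9 in the controls and 328 in KI replicate 4, against 573 to 605 in the other KI libraries. KI replicate 4 was the KI library nearest to the control mean for 32 of the 73 tested members and for 46.7% of all genes tested. The choroid plexus gene Ttr was nearly missing from control replicate 4 and KI replicate 3, at 44.9 and 237 normalized counts against 14985 to 97274 in the other libraries. Xist was high in control replicates 2 and 3 and in KI replicate 4 and near 0 in the other 5 libraries. KI replicate 4 was thus the only KI library high in Xist and also the KI library with the least Pdgfra. Fits that use Xist cannot tell these properties apart among the KI libraries. Recovered reads summed to 24816146 to 27716846 in controls and to 21492789 to 24458589 in KI libraries, each KI library being shallower than each control. The labels do not say whether the 4 libraries of a group came from separate litters or collection days, and p-values measure the spread between these libraries.

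Of the 73 tested members, 5 rose in KI BS (Vamp7, Vamp4, Snap25, Unc13c and Vamp5), 6 fell (Sv2a, Stx2, Syn1, Syt11, Stx6 and Syngr2) and 62 did not pass the threshold of an adjusted p of 0.05 in limma on log2(normalized count + 1). The 11 members that passed were 15.1% of those tested, whereas 24.4% of all genes tested passed, 12.0% higher and 12.4% lower. The median log2 fold change of the members was 0.030, beside -0.0040 over all genes tested. Members ranged from -0.66 (Syt11) to 0.95 (Unc13c). In 16 members the KI and control libraries did not overlap, 8 in each direction, which compares with 25.5% of all genes tested. An unadjusted p under 0.05 was found for 23 members. The share of all genes at that unadjusted p was not computed in this or any other fit, so the count has no comparison.

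**Figure D1:**
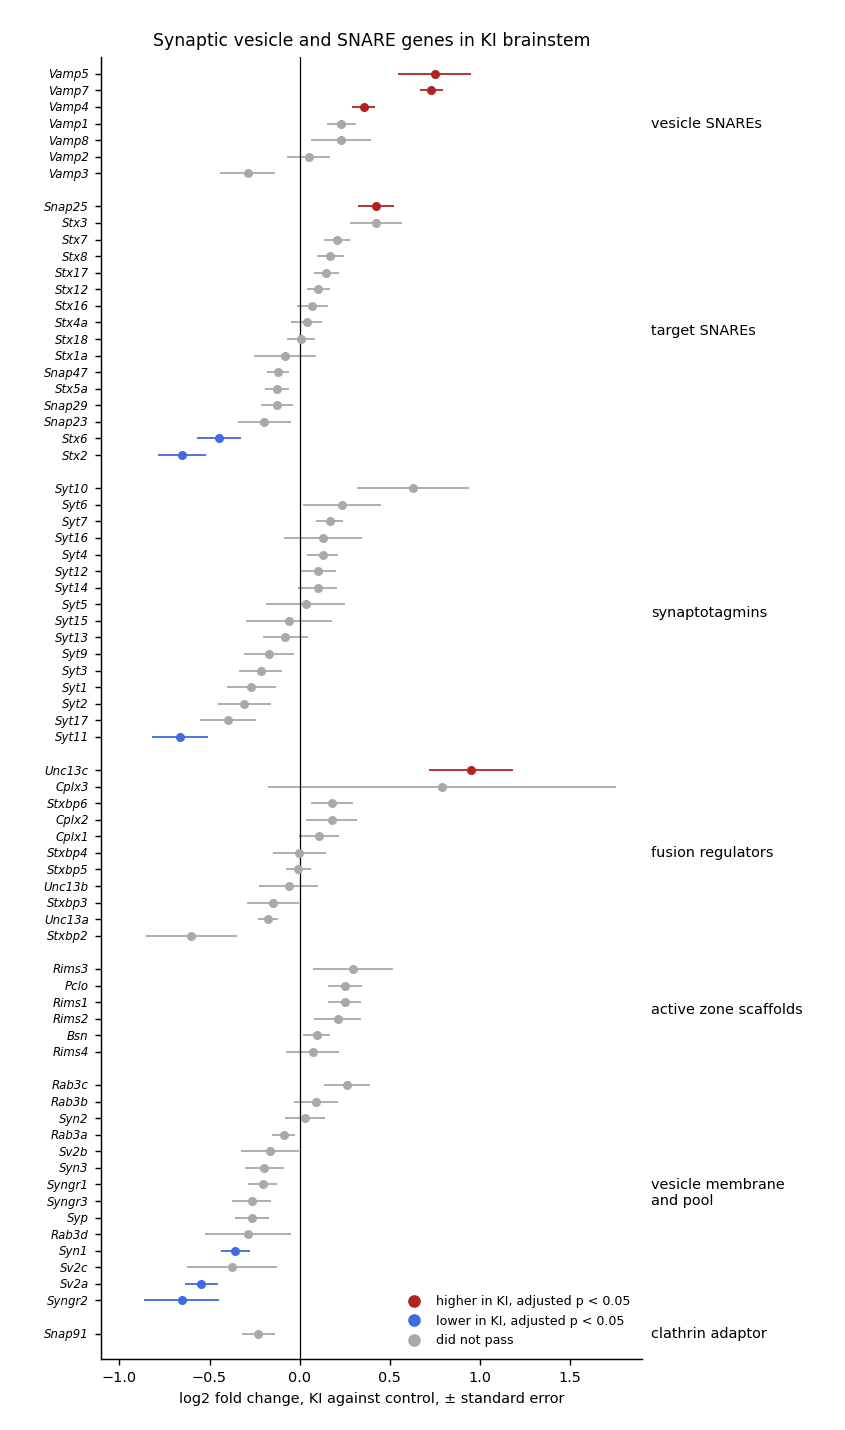
Log2 fold change of tested members in KI against control BS, with the standard error as a bar and members grouped by role. The 5 red points lie right of 0, 3 of them vesicle SNAREs, and the 6 blue points lie left of 0, 3 of them proteins of the vesicle membrane and pool. The wide bar of Cplx3 belongs to a gene near the filter on low values.

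The calls depended on which libraries were used, over all genes as well as in the members. Without control replicate 2, 5.48% of the members and 5.88% of all genes passed. Without KI replicate 2, 4.11% of the members and 6.63% of all genes passed. Without KI replicate 4, 7 members passed as higher and 10 as lower, while 35.0% of all genes passed. Without the libraries low in Ttr, 4 passed as higher and 5 as lower, among them 8 of the 11, which was 12.5% of the members beside 12.2% of all genes.

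The core genes of transmitter release were among the most abundant members. Per kb of transcript, mean levels were high for Cplx1 at 13383 normalized counts per kb, Snap25 at 11925, Syp at 9541, Rab3a at 8827 and Vamp2 at 6112. Vamp1, the synaptobrevin that prevails in brainstem and spinal cord, stood next to Vamp2 at 5642 per kb. Syt11 had 5437 and Snap47 5302 per kb. Stx1a, a neuronal syntaxin, had 232 normalized counts per kb. Syt2, the fast calcium sensor of brainstem synapses, had 2325 per kb and Syt1, the sensor that prevails in the forebrain, 1958 per kb. Vamp7 (440), Stx6 (357), Syngr2 (303) and Stx2 (226) lay further down, and Vamp5 had 20.1 per kb. Neuron markers were abundant in every library, with a summed level of 18 genes of 360255 to 406037 in controls and 324522 to 358335 in KI. Every KI sum thus lay below every control sum. Of the 18, 1 passed as higher (Map2) and 3 as lower, Elavl3 and Mapt among them (22.2%, beside 24.4% of all genes). The median log2 fold change of the neuron markers was -0.08. Forebrain markers summed to 360 to 557 in controls and 343 to 537 in KI, and no forebrain marker passed among the 5 that were tested.

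**Figure D2:**
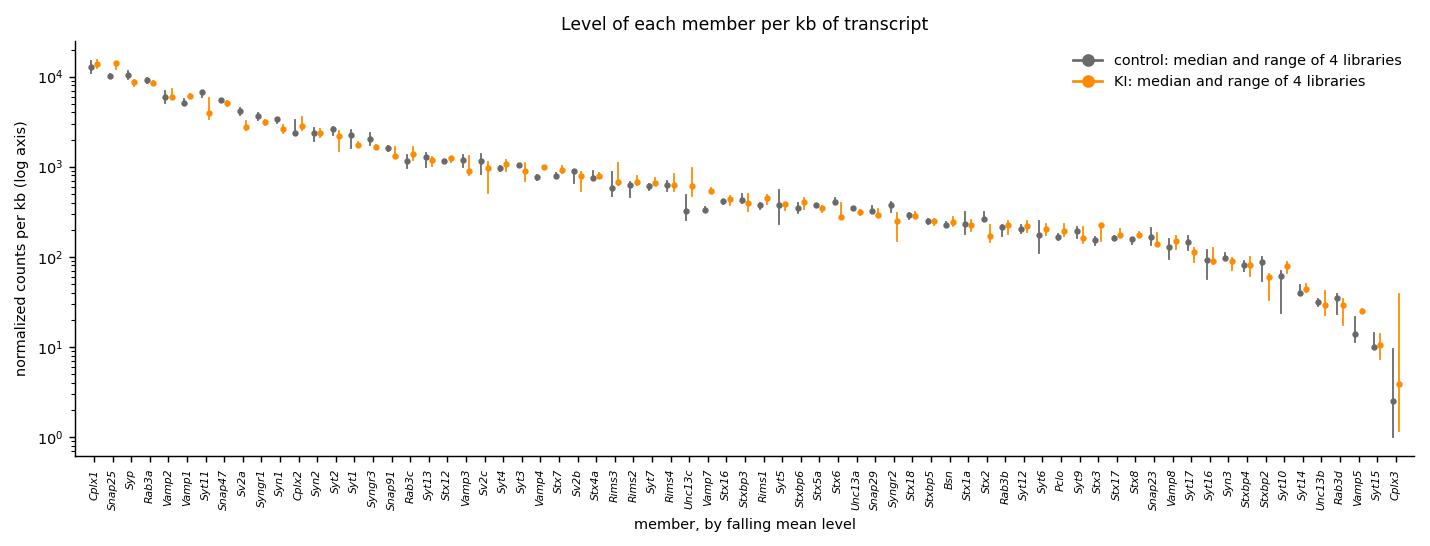
Normalized counts per kb of transcript for tested members on a log axis, ordered by mean level, with the median and range of 4 control (grey) and 4 KI (orange) libraries. Levels run from 13383 per kb for Cplx1 to 7.93 per kb for Cplx3, and the ranges of both groups overlap for most members.

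Among the 7 vesicle SNAREs, 3 rose, none fell, and the median log2 fold change was 0.23. The 3 were 42.9% of this short list, beside 24.4% of all genes tested. Vamp7, a SNARE of late endosomes and lysosomes with an N-terminal longin domain, had the smallest p of all members. It read 803, 792, 911 and 852 normalized counts in control replicates 1 to 4 and 1348, 1466, 1386 and 1369 in KI replicates 1 to 4. All 4 KI libraries, including replicate 4, stood together above all 4 controls. This was a log2 fold change of 0.73 (SE 0.07, limma adjusted p = 0.00725), from 839 ± 54.4 to 1392 ± 51.6 normalized counts (SD, n = 4). The deposited table places Vamp7 on the minus strand of an unlocalized scaffold of the X chromosome, from 10736 to 39191 in mm10.

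Vamp4 (chromosome 1, 162570827 to 162599078, plus strand) is a SNARE of the trans-Golgi network and endosomes. Its control libraries read 1946, 2129, 2148 and 2251 normalized counts and its KI libraries 2564, 2816, 2683 and 2767. The groups did not overlap, and KI replicate 4 was again among the high libraries. Vamp4 had a log2 fold change of 0.35 (SE 0.06, limma adjusted p = 0.0108). Restricted to libraries low in Xist, the log2 fold change was 0.36 and the limma adjusted p 0.0574. That fit held only control replicates 1 and 4 and KI replicates 1 to 3, and 12.6% of all genes passed in it.

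Vamp5, or myobrevin, a VAMP best known from muscle, was the least abundant member that passed. It read 56.2, 34.8, 38.3 and 29.3 normalized counts in controls and 65.0, 69.2, 62.0 and 65.4 in KI. The KI values were tight and lay above all controls, of which control replicate 1 came closest. Its log2 fold change was 0.75 (SE 0.20, limma adjusted p = 0.0286), and the gene passed in only 2 of 8 fits that each left out a library, with an adjusted p of up to 0.0848 without control replicate 2 and 0.0835 without KI replicate 2. Leaving out control replicate 3 (0.0659), control replicate 4 (0.0534), KI replicate 1 (0.0623) or KI replicate 3 (0.0556) also lost the call, as did the log2 Xist covariate (0.0763), restriction to libraries low in Xist (0.197) and omission of the libraries low in Ttr (0.0842).

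The synaptobrevins of the synaptic vesicle did not pass. Vamp1 read 32289, 28283, 29447 and 28601 in controls and 34929, 36649, 34080 and 33392 in KI, so that the groups did not overlap, with a log2 fold change of 0.23 and a limma adjusted p of 0.0639. It passed without KI replicate 4 (0.036), in edgeR (0.0499) and DESeq2 (0.00418) on the recovered reads and with the GC and length correction (0.0373). Vamp2 read 11209 to 15360 in controls and 12471 to 15919 in KI (log2 fold change 0.05, SE 0.12, limma adjusted p = 0.785). Vamp3, or cellubrevin, the VAMP of recycling endosomes in glia and other cells, was low in KI replicates 1 to 3 at 1901, 1907 and 1712. KI replicate 4 read 2776, against 2118 to 2875 in controls. Vamp3 did not pass with all libraries, and passed without KI replicate 4. Vamp8 had a log2 fold change of 0.23 (SE 0.17, limma adjusted p = 0.344).

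**Figure D3:**
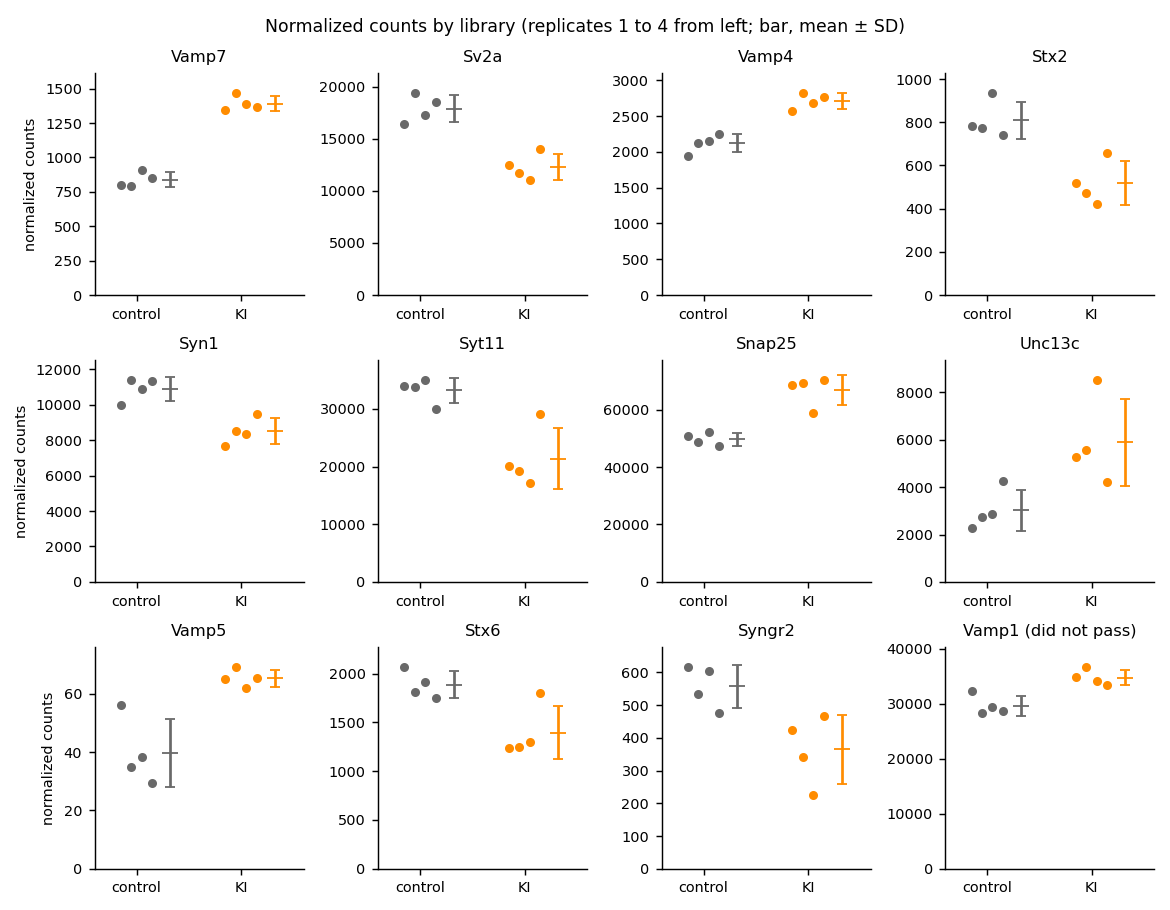
Normalized counts of the 11 members that passed and of Vamp1, which did not, in each of the 8 libraries (dots, replicates 1 to 4 from the left within a group, linear axes from 0; bars, mean ± SD). KI and control dots are separate for Vamp7, Sv2a, Vamp4, Stx2, Syn1, Syt11, Snap25, Vamp5, Syngr2 and Vamp1, and overlap for Unc13c and Stx6. KI replicate 4 is the KI dot nearest to the controls for Sv2a, Stx2, Syn1, Syt11, Unc13c, Stx6, Syngr2 and Vamp1.

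Target-membrane SNAREs comprised 19 members, of which 17 were tested, with a median log2 fold change of 0.04. Of the 17, 1 rose, 2 fell and 14 did not pass (17.6% passed, beside 24.4% of all genes). Snap25, the plasma membrane SNARE that every neuronal release site needs, was the member that rose. It read 50716, 48540, 52147 and 47218 normalized counts in controls and 68604, 69254, 58869 and 70203 in KI. KI replicates 1, 2 and 4 lay within a narrow band, KI replicate 3 was lower, and all 4 stood above the controls. The log2 fold change was 0.42 (SE 0.10, limma adjusted p = 0.0178), from 49655 ± 2200 to 66733 ± 5283 normalized counts (SD, n = 4). The call was lost without control replicate 2 (0.0607), without KI replicate 2 (0.0624), in a fit restricted to libraries low in Xist (0.0928), and once GC content and transcript length were corrected for, which reduced the log2 fold change to 0.25 (adjusted p = 0.116). Snap25 lies on chromosome 2 (136713449 to 136782428, plus strand) and its longest transcript has a GC content of 38.7%.

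Stx2 (chromosome 5, 128984557 to 129008572, minus strand), or epimorphin, is a plasma membrane syntaxin found in many cell types. Its libraries read 784, 775, 934 and 743 normalized counts in controls and 519, 474, 424 and 659 in KI. KI replicate 4 was the highest KI library and still below every control. Stx2 had a log2 fold change of -0.65 (SE 0.14, limma adjusted p = 0.0136), and the adjusted p was 0.0501 without KI replicate 2.

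Stx6 (chromosome 1, 155158702 to 155203517, plus strand), a syntaxin of the trans-Golgi network and endosomes, read 2065, 1811, 1911 and 1749 in controls and 1237, 1243, 1297 and 1800 in KI. KI replicates 1 to 3 were low and alike, whereas KI replicate 4 fell within the control range, so that the groups overlapped. Its log2 fold change was -0.45 (SE 0.12, limma adjusted p = 0.0288), and -0.58 without KI replicate 4 (0.000608). Leaving out control replicate 1 (0.0719), 2 (0.0695) or 3 (0.0686) or KI replicate 1 (0.0752), 2 (0.089) or 3 (0.068) lost the call, as did the log2 Xist covariate (0.0711), omission of the libraries low in Ttr (0.0733) and the GC and length correction (0.0788).

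The other syntaxins tested did not pass. Stx1a read 385 to 687 in controls and 419 to 555 in KI (log2 fold change -0.08, SE 0.17, limma adjusted p = 0.767). The endosomal syntaxins Stx7 and Stx8 and the autophagosomal Stx17 did not overlap between groups and were higher in KI. Their log2 fold changes were 0.21, 0.17 and 0.15, but none passed (limma adjusted p = 0.0612, 0.13 and 0.155). Among the alternatives, Stx7 passed in DESeq2, with the log2 Xist covariate and without KI replicate 3, and Stx8 with the GC and length correction. Stx3, a plasma membrane syntaxin of polarized cells and ribbon synapses, read 414 to 510 in controls and 699, 673, 698 and 453 in KI. KI replicate 4 lay inside the control range. Stx3 had a log2 fold change of 0.42 (SE 0.14, limma adjusted p = 0.0593). It passed in edgeR and DESeq2, with libraries low in Xist only and without KI replicate 4. Snap47 did not overlap between groups and was lower in KI (log2 fold change -0.12, SE 0.06, limma adjusted p = 0.185), but 307 bases of its exons overlap those of Jmjd4 on the other strand. Snap23, the relative of Snap25 found outside neurons, had a log2 fold change of -0.20 (SE 0.15, limma adjusted p = 0.36).

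Among 16 tested synaptotagmins, 1 fell and none rose (6.25%, beside 24.4% of all genes), and the median log2 fold change was -0.01. Syt11 (chromosome 3, 88744700 to 88772599, minus strand), an abundant synaptotagmin that does not bind calcium and is found in glia as well as neurons, was that gene. It read 34004, 33851, 34965 and 30042 normalized counts in controls and 20015, 19267, 17078 and 29110 in KI. KI replicate 4 nearly reached the lowest control, and the other KI libraries lay far beneath. The log2 fold change was -0.66 (SE 0.15, limma adjusted p = 0.0178), and -0.82 without KI replicate 4 (0.000377). The call was lost without control replicate 2 (0.0582) and without KI replicate 2 (0.0605), at log2 fold changes of -0.65 and -0.62.

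The calcium sensors of fast release did not pass. Syt1 read 7799, 11919, 9523 and 12285 in controls and 7960, 8243, 8606 and 9173 in KI. The KI libraries lay within the broad control range, and the log2 fold change was -0.27 (SE 0.14, limma adjusted p = 0.184). Without control replicate 1, the lowest control, it was -0.40 (0.0412). Syt2 read 15398 to 19083 in controls and 10401 to 16925 in KI, KI replicate 3 being the lowest (log2 fold change -0.31, SE 0.15, limma adjusted p = 0.152). Syt7, a slower sensor, had a log2 fold change of 0.17 (SE 0.08, limma adjusted p = 0.145). Syt10 had the highest log2 fold change of the family, 0.63 with an SE of 0.31, on 43.7 to 129 normalized counts in controls and 120 to 163 in KI (limma adjusted p = 0.166).

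Of 12 tested fusion regulators, 1 rose and none fell (8.33%, beside 24.4% of all genes), and the median log2 fold change was -0.0048. Unc13c (chromosome 9, 73479423 to 73933567, minus strand) encodes Munc13-3, a priming factor known mainly from cerebellar granule cells. It read 2255, 2739, 2872 and 4269 normalized counts in controls and 5287, 5564, 8514 and 4209 in KI. Control replicate 4 was the highest control and KI replicate 3 the highest KI library, both being the libraries low in Ttr, and KI replicate 4 lay below control replicate 4. The log2 fold change was 0.95 (SE 0.23, limma adjusted p = 0.0215). The call was lost without control replicate 1 (0.0535), 2 (0.0661) or 3 (0.0546) and without KI replicate 2 (0.0613). It was also lost with log2 Xist as a covariate (0.0595) and with libraries low in Xist only (0.081), and it was kept without the libraries low in Ttr. The 10 cerebellum markers summed to 4175 to 6691 normalized counts in controls and 4405 to 8315 in KI, with 4405 in KI replicate 3, and none of them passed. A part of cerebellar tissue in the Unc13c difference was not tested.

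Unc13a, which encodes Munc13-1, the main priming factor of most synapses, fell just outside the threshold. It read 3603, 3637, 3546 and 3594 in controls and 2987, 3200, 3180 and 3390 in KI. The controls were tight and every KI library was lower, KI replicate 4 the least so (log2 fold change -0.17, SE 0.06, limma adjusted p = 0.0502). Unc13a passed in DESeq2, with a pseudocount of 10 and without KI replicate 4. Its exons share 495 bases with Colgalt1 on the other strand, and reads there were left out as ambiguous. The complexins Cplx1 and Cplx2 had log2 fold changes of 0.11 and 0.18 and did not pass (limma adjusted p = 0.511 and 0.384). Stxbp2, or Munc18-2, is known from secretory cells outside the nervous system. It had a log2 fold change of -0.60 with an SE of 0.25 (limma adjusted p = 0.112) on 96.1 to 287 normalized counts. Stxbp2 passed without the libraries low in Ttr and without control replicate 4.

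None of the 6 active zone scaffolds passed, although all 6 log2 fold changes were above 0 and their median was 0.23. Rims1 and Pclo, which encode RIM1 and Piccolo, had log2 fold changes of 0.25 each (SE 0.09, limma adjusted p = 0.0721, and SE 0.10, limma adjusted p = 0.0833). Both had an unadjusted p under 0.05, and DESeq2 on the recovered reads called Rims1 whereas edgeR called no scaffold. Rims1 also passed without KI replicate 1, and Rims1, Pclo and Bsn passed with the GC and length correction. Rims1 read 2201 to 2579 in controls and 2482 to 3151 in KI, and Pclo 3096 to 3558 and 3447 to 4627. Rims2 (0.21), Bsn (0.10) and Rims4 (0.07) lay lower on that scale. Rims3 read 3105, 4176, 3286 and 5701 in controls and 4104, 4470, 7076 and 4268 in KI. The libraries low in Ttr were the highest of each group, and the log2 fold change of Rims3 was 0.30 (SE 0.22, limma adjusted p = 0.356).

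The vesicle membrane and pool proteins comprised 15 members, of which 14 were tested, with a median log2 fold change of -0.24. Of the 14, 3 fell, none rose and 11 did not pass (21.4% passed, beside 24.4% of all genes). Sv2a (chromosome 3, 96181226 to 96195180, plus strand), a glycoprotein of all synaptic vesicles and the binding site of levetiracetam, read 16424, 19349, 17265 and 18531 normalized counts in controls and 12446, 11711, 11002 and 13982 in KI. Every KI library was below every control, and KI replicate 4 was the nearest. The log2 fold change was -0.55 (SE 0.09, limma adjusted p = 0.00938), from 17892 ± 1301 to 12285 ± 1276 normalized counts (SD, n = 4). Sv2b and Sv2c did not pass (log2 fold changes -0.17 and -0.38, limma adjusted p = 0.481 and 0.298).

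Syn1 (chromosome X, 20860510 to 20920918, minus strand) encodes synapsin I, which ties vesicles of the reserve pool to one another and to actin. It read 9961, 11384, 10878 and 11344 in controls and 7692, 8541, 8374 and 9457 in KI. The groups did not overlap, and KI replicate 4 was the highest KI library. Syn1 had a log2 fold change of -0.36 (SE 0.08, limma adjusted p = 0.0167). The call was lost without control replicate 2 (0.0595), without KI replicate 2 (0.054), with libraries low in Xist only (0.0559), without the libraries low in Ttr (0.0612) and after the GC and length correction, which reduced the log2 fold change to -0.21 (0.138). Syn2 and Syn3 had log2 fold changes of 0.03 and -0.20 and did not pass (limma adjusted p = 0.87 and 0.212).

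The promoter of Syn1 is shown because it holds, among the member promoters matched, a complete cAMP response element, the palindrome TGACGTCA bound by CREB family factors. Promoter sequences from RefSeq (GRCm38.p6) were found by symbol for 60 of the 78 members, 76 promoters in all. The element was present in 2.63% of them, in Syn1 and Stxbp3, and in 1.79% of 32851 promoters. The windows read 5′ to 3′ on the minus strand with the element in capitals, which starts 159 bases before the gene start in Syn1 and 108 bases before it in Stxbp3.
Syn1, chrX:20921060-20921087: aaaggctgacTGACGTCActcactagcc
Stxbp3, chr3:108840593-108840620: ttgatgcgcgTGACGTCAcctgagggcg
Stxbp3, or Munc18c, had a log2 fold change of -0.15 (SE 0.14, limma adjusted p = 0.478), so that Syn1 fell and Stxbp3 did not pass.

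Syngr2, or cellugyrin, the synaptogyrin of cells other than neurons, lies on chromosome 11 (117809666 to 117814286, plus strand). It read 616, 533, 603 and 477 in controls and 424, 343, 225 and 467 in KI. KI replicate 4 lay close beneath control replicate 4, and KI replicate 3 was far below the others. Its log2 fold change was -0.65 (SE 0.21, limma adjusted p = 0.0476), and Syngr2 was the least stable member that passed. It passed in 1 of 8 fits with a library left out, that without KI replicate 4 (0.015), and the adjusted p without each of the other libraries was 0.0504 to 0.113. It was also lost in edgeR (0.0548), with no filter on low values (0.0553), with the log2 Xist covariate (0.129) and with libraries low in Xist only (0.118). Its exons overlap those of Gm20708 on the same strand by 136 bases.

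Synaptophysin, encoded by Syp and a major protein of the vesicle membrane, read 27068, 32513, 27569 and 31422 in controls and 26313, 24153, 22398 and 25573 in KI. All 4 KI libraries were below all controls, but the gene did not pass (log2 fold change -0.27, SE 0.09, limma adjusted p = 0.066). The adjusted p was 0.0474 without KI replicate 4 and 0.0202 in DESeq2, and 875 exonic bases of Syp overlap Gm14703 on the other strand. The neuronal synaptogyrins Syngr1 and Syngr3 had log2 fold changes of -0.21 and -0.27 (limma adjusted p = 0.0857 and 0.1), and Syngr1 passed in DESeq2. Rab3a, the main Rab3 of synaptic vesicles, had a log2 fold change of -0.09 (SE 0.07, limma adjusted p = 0.35), and Rab3c 0.26 (SE 0.13, limma adjusted p = 0.156). The clathrin adaptor gene Snap91 read 8001, 9150, 8735 and 8700 in controls and 6815, 7027, 7010 and 8794 in KI. KI replicates 1 to 3 were below all controls and KI replicate 4 among them (log2 fold change -0.23, SE 0.09, limma adjusted p = 0.0957), and without KI replicate 4 the log2 fold change was -0.31 (0.00543).

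Members were also grouped by whether they serve mainly neuronal exocytosis or general membrane traffic. Of 42 tested members of neuronal exocytosis, 2 rose and 2 fell (9.52%), with a median log2 fold change of 0.03. Of 26 tested members of general traffic, 3 rose and 3 fell (23.1%), with a median of 0.0017. Among 5 in neither group, Syt11 fell. The difference between the groups in the share that passed was not tested, and both shares lay below 24.4%, the share of all genes.

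Of the members that fell, Syt11, Stx2, Stx6 and Syngr2 are also expressed outside neurons, and the markers of oligodendrocyte precursor cells (OPCs) were lower in KI. Of 10 OPC markers, 9 fell and none rose (90%, beside 24.4% of all genes tested), the exception being C1ql1. Their sum was 34466, 33453, 34325 and 30560 normalized counts in controls and 7971, 8441, 5537 and 22676 in KI. KI replicate 4 was the KI library with the highest OPC sum and also with the highest Syt11, Stx2, Stx6 and Syngr2, and the highest Sv2a and Syn1 as well. It was the KI library nearest to the control mean for 46.7% of all genes tested. Myelinating oligodendrocyte markers summed to 1113990 to 1700710 in controls and to 925353, 663029, 465308 and 1392440 in KI, and 6 of 10 fell (60%). Astrocyte markers summed to 152745 to 196413 in controls and 219197 to 340836 in KI, and 5 of 10 rose (50%). The part of these cell types in the changes of the members was not tested, and in bulk tissue fewer cells of a type and less RNA per cell cannot be told apart. Microglia markers summed to 6590 to 8206 in controls and 7061 to 7822 in KI, and none of 8 passed. Endothelial markers summed to 7396 to 8318 in controls and 6706 to 9025 in KI. Of these 8 markers, Kdr and Tie1 fell (25%, beside 24.4% of all genes tested). Choroid plexus markers ran from 751 in control replicate 4 to 103664 in controls and from 1094 in KI replicate 3 to 36355 in KI, and none passed.

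**Figure D4:**
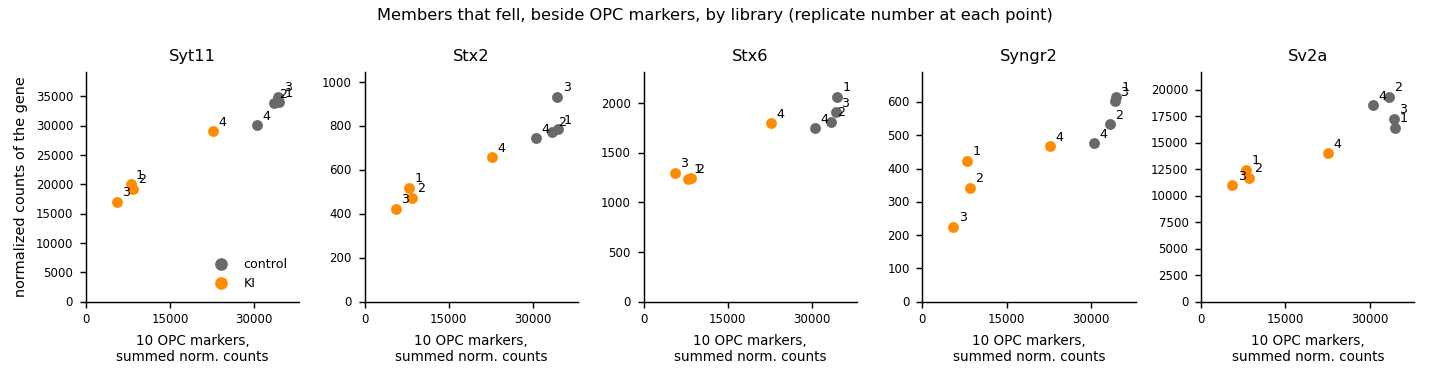
Normalized counts of Syt11, Stx2, Stx6, Syngr2 and Sv2a (vertical axes from 0) against the summed normalized counts of 10 OPC markers in each library, with control libraries in grey, KI libraries in orange and the replicate number at each point. KI replicate 4 lies at 22676 on the horizontal axis, between the other KI libraries (5537 to 8441) and the controls (30560 to 34466), and it holds the highest KI value of each gene shown.

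The libraries low in Ttr shared a pattern over the members. For 20 members (27.4%, beside 14.0% of all genes tested) control replicate 4 and KI replicate 3 were each the highest of their group, Unc13c, Rims1, Rims2, Rims3, Bsn, Cplx2, Syn2 and Vamp2 among them. For 18 members (24.7%, beside 14.6%) they were each the lowest of their group, among them Snap25, Syt2, Sv2c, Syt11, Stx2, Syngr2 and Vamp5. Whether these libraries hold another stretch of tissue was not tested. KI replicate 3 had the largest median distance from the control mean over the members, 0.31 on the log2 scale, followed by KI replicates 2 (0.20), 1 (0.18) and 4 (0.13). Over all genes tested, KI replicate 3 was also the farthest (0.28) and KI replicate 4 the nearest (0.17), with 0.26 in KI replicate 2 and 0.27 in KI replicate 1.

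Base composition differed between the members that rose and those that fell. The median GC content of the longest transcript was 44.8% in the 4 members that rose and have a transcript in the annotation used, 53.6% in the 6 that fell and 49.9% in the 62 that did not pass. Over all genes tested, the medians were 45.2%, 53.2% and 49.9%. With GC content and transcript length corrected for, 9 members passed as higher and 4 as lower, 18.1% of those fitted, beside 15.7% of all genes. The members' share was thus above that of all genes in this fit and below it in the reported one, and the difference between shares was not tested. Snap25, Stx6 and Syn1 no longer passed, Bsn, Pclo, Rims1, Stx8, Syt7 and Vamp1 did, and Vamp7 has no transcript sequence in the annotation and was left out of that fit.

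**Figure D5:**
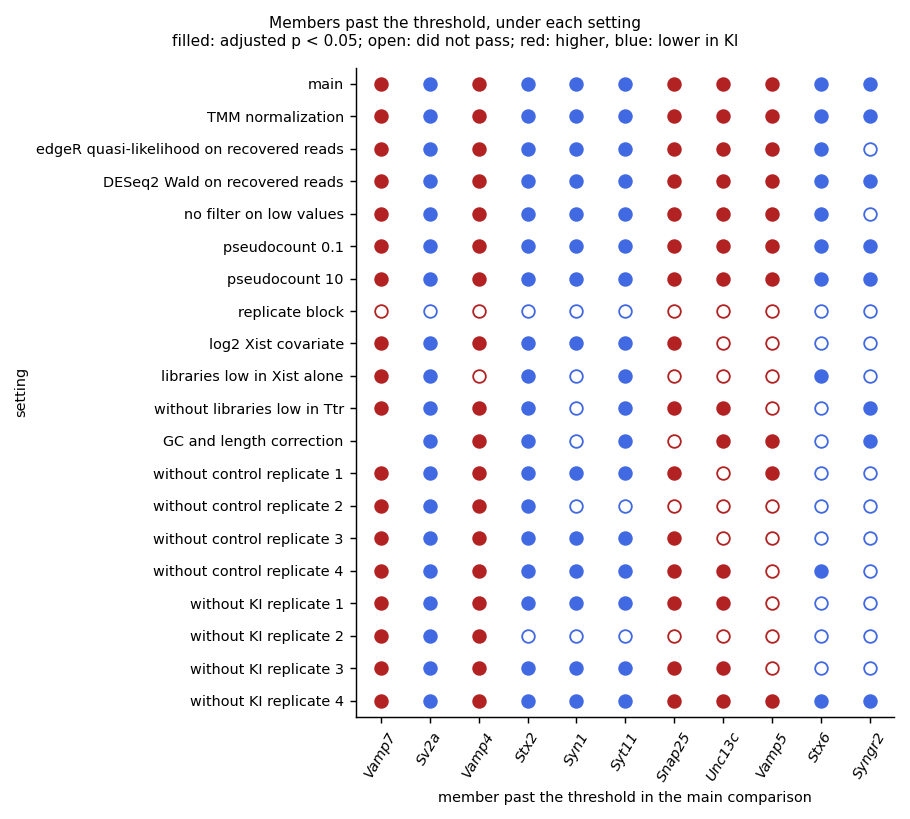
The 11 members that passed (columns, by p) under the reported fit and 19 alternative settings (rows). Filled circles passed an adjusted p of 0.05, open circles did not, red is higher and blue lower in KI. Colors do not change within any column, Vamp7, Sv2a and Vamp4 stay filled whenever 1 library is left out, and all circles are open with the replicate number as a block.

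Other genes of the release pathway were examined as listed groups. Of 37 further genes of the release machinery, 6 rose (Lin7c, Napb, Brsk1, Ppfia3, Synpr and Rph3a) and 3 fell (Scamp5, Rab3gap2 and Erc1), with a median log2 fold change of 0.06. That was 24.3% of the list, beside 24.4% of all genes tested. Lin7c, a scaffold that joins CASK and Mint at the presynaptic membrane, read 1236, 1246, 1455 and 1340 in controls and 1883, 1856, 1955 and 1884 in KI. All KI libraries were higher, at a log2 fold change of 0.53 (SE 0.07, limma adjusted p = 0.00748), which the GC and length correction reduced to 0.28 (0.0248). Scamp5, a secretory carrier membrane protein of synaptic vesicles, had a log2 fold change of -0.44 (SE 0.09, limma adjusted p = 0.0136) with no overlap between groups, and its adjusted p was 0.0518 without control replicate 2. Napb encodes the brain form of the SNAP adaptor that disassembles spent SNARE complexes with NSF, and its log2 fold change was 0.31 (SE 0.07, limma adjusted p = 0.019).

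Endocytosis genes, which retrieve vesicle membrane after release, gave 1 higher (Eps15) and 8 lower of 29, with a median log2 fold change of -0.08. The 9 that passed were 31.0% of the list, beside 24.4% of all genes tested. Dnm2, the dynamin found in all tissues, read 2656, 2741, 2937 and 2609 in controls and 1926, 1444, 1236 and 1967 in KI. Every KI library was below every control, at a log2 fold change of -0.76 (SE 0.14, limma adjusted p = 0.0117). The neuronal dynamin Dnm1 also fell, by 0.30 on the log2 scale (SE 0.08, limma adjusted p = 0.032). Ap2b1 and Ap2a1, subunits of the clathrin adaptor AP-2, had log2 fold changes of -0.32 and -0.22 (limma adjusted p = 0.0141 and 0.0365). Ap2b1 lost its call without control replicate 2 (0.0547), without the libraries low in Ttr (0.0517) and with the GC and length correction, which reduced the log2 fold change to -0.19 (0.0507). Epn2, Bin1, Sh3gl1 and Sh3gl3 completed the 8, at log2 fold changes of -0.70, -0.70, -0.37 and -1.05 (limma adjusted p = 0.0168, 0.0195, 0.0203 and 0.0178). KI replicate 4, the KI library with the highest OPC and myelinating oligodendrocyte marker sums, stood apart in several of them. Sh3gl3 read 1024, 882, 752 and 1912 in KI replicates 1 to 4, Bin1 4105, 3662, 3090 and 5925, and Epn2 2056, 1914, 1955 and 3258. In each, KI replicate 4 was the highest KI library and still below every control, and the part of those cell types was not tested. That library was the KI library nearest to the control mean for 46.7% of all genes tested.

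None of 7 vesicular transmitter transporters passed. Slc17a6, a vesicular glutamate transporter, read 5945 to 8203 in controls and 6519 to 8210 in KI (log2 fold change 0.06, SE 0.11, limma adjusted p = 0.718). Slc32a1, the transporter for GABA and glycine, read 4365 to 5139 in controls and 3288 to 4401 in KI (log2 fold change -0.23, SE 0.10, limma adjusted p = 0.12). It was the transporter gene with an unadjusted limma p under 0.05. Slc17a7, Slc17a8, Slc18a2 and Slc18a3 had log2 fold changes of -0.65 to -0.81 with SEs of 0.37 to 0.45. Of 20 other SNAREs and exocyst tethers, 4 rose (Vti1b, Sec22a, Use1 and Bet1) and Exoc3 fell. That was 25% of the list, beside 24.4% of all genes tested, and the median log2 fold change was -0.01. Vti1b, a partner of Vamp7, Stx7 and Stx8 on late endosomes, read 2330, 2002, 2162 and 2166 in controls and 2736, 3023, 2976 and 2626 in KI. The groups did not overlap, at a log2 fold change of 0.39 (SE 0.07, limma adjusted p = 0.011). Sec22a had a log2 fold change of 0.32 (SE 0.08, limma adjusted p = 0.0213). It lost the call without control replicate 1 (0.0531), 2 (0.0707) or 3 (0.0567), without KI replicate 2 (0.0703), with the log2 Xist covariate (0.0514) and with libraries low in Xist only (0.147).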

How the data were processed

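BS RNA-seq values of 4 KI and 4 control libraries came from the authors' deposited table, with 24709 lines for 24081 unique genes, from which 628 repeated lines were dropped. Per the submitters' notes and the methods, STAR 2.7 was used by the authors for alignment to mm10 and HTSeq for unstranded counting, with ambiguous reads left out. The deposited signal of each gene equals its read count over the library's DESeq2 size factor, computed by the authors. Undoing that division gave whole reads (tolerance 0.01) for 100% of values. The table also holds the authors' own fold changes and p-values, which were not used.

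KI and control libraries were compared by limma 3.58.1 (R 4.3.3, variance trend) on log2(normalized count + 1), a scale that understates changes of low genes, over the 15123 genes whose mean reached 10, with Benjamini-Hochberg adjustment and a threshold of 0.05. Levels per kb used the longest GENCODE transcript (exon union for Vamp7). In every pair of libraries of a group, counts differed by more than sampling noise (chi-square per degree of freedom 13.2 to 110), and each library was counted as 1 replicate.

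The members were taken by the rule on names alone. That rule, the roles, pathway lists and cell type markers were set with earlier results of these data known. Named by rule were the members past the threshold, the most abundant member of each role, Snap25, Syn1, Stx1a, Vamp2, Syt1 and Syp, and the 2 genes past the threshold with the smallest p of each pathway list. Further genes were named after their values were seen. Alternatives were TMM normalization, edgeR 4.0.16 and DESeq2 1.42.0 on recovered reads, no filter, pseudocounts of 0.1 and 10, a replicate block, a log2 Xist covariate, a fit of libraries low in Xist, omission of the libraries low in Ttr, a GC and length correction and each library left out in turn. The limma, edgeR and DESeq2 fits were tested on simulated data. A few genes are not reported here by name.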

Additional observations from a re-analysis of the deposited data

Results flagged for a closer look

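Within a group of 4 libraries, a library was singled out when its gap to the nearest other library exceeded 0.829 of the range of the group. With 25 named genes in both groups of libraries, 50 groups were checked and 4 of them (8%) met this, while chance gives about 1 in 20. Rims3 read 7076 normalized counts in KI replicate 3, the highest of KI, with a gap of 0.877 of the range. Snap25 read 58869 in KI replicate 3, the lowest of KI (0.859). Snap91 read 8794 in KI replicate 4, the highest of KI (0.892), and Stx6 read 1800 in the same library, also the highest (0.893). KI replicate 3 is a library low in Ttr, and KI replicate 4 is the KI library with the least Pdgfra (3269 normalized counts). The part of either property in these values was not tested.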

How the results depend on the processing

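With 5 members higher and 6 lower as reported, DESeq2 gave 9 and 9 (24.7% of members, 29.2% of all genes), the GC and length correction 9 and 4 (18.1%, 15.7%), the log2 Xist covariate 4 and 4 (11.0%, 14.6%, with Stx6, Syngr2, Unc13c and Vamp5 lost and Stx7 gained), the libraries low in Xist alone 2 and 4 (8.22%, 12.6%), and the replicate block 0 and 0 (no gene of 15123 passed, and 23 members had an unadjusted p under 0.05). The replicate numbers mark no stated pairs, and deviations of same-numbered libraries correlated at 0.256, -0.117, -0.463 and -0.362, so the block is no paired analysis. With 1 library left out, 2 to 7 members were higher and 1 to 10 lower. The counts were lowest without control replicate 2 (2 and 2, 5.48% of members, 5.88% of all genes) or KI replicate 2 (2 and 1, 4.11%, 6.63%). Without control replicate 3, 3 were higher and 4 lower (9.59%, 12.4%). They were highest without KI replicate 4 (7 and 10, 23.3%, 35.0%). The members' median log2 fold change was -0.037 to 0.062 in these fits, the lowest without control replicate 1. TMM normalization, edgeR, no filter and both pseudocounts gave 5 to 7 higher and 5 to 7 lower. The shares of members and of all genes were 15.1% and 24.3% with TMM and with a pseudocount of 0.1. They were 16.4% and 24.0% in edgeR, 12.8% and 16.4% with no filter, and 16.4% and 24.5% with a pseudocount of 10. None of the 11 members that passed changed sign under any of the 19 alternatives that could fit it. Vamp5 and the 5 untested members had few reads, and differences in them may not be detectable.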
